A study of Mus musculus with 8 samples.

Results

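The RFX family comprises transcription factors that share a winged-helix DNA-binding domain and recognize the X box, an imperfect inverted repeat, together with a pair of partner proteins that have no such domain. RFX1, RFX2 and RFX3 are best known for switching on the genes of cilia and of sperm development, while RFX7 has been linked to genes that restrain growth and metabolism in lymphoid cells. RFX5, RFXANK and RFXAP form 1 complex that sits on the X box of every classical MHC class II promoter, where it recruits the coactivator CIITA, and loss of any of these subunits abolishes or strongly reduces class II expression and causes immunodeficiency in humans. Here 7 genes of the family, Rfx1, Rfx2, Rfx3, Rfx5, Rfx7, Rfxank and Rfxap, were followed in mouse splenocytes, out of 51826 genes counted. They were taken by symbol from the gene annotation, and the family was chosen from the tRA against control contrast of these same mice, in which Rfx2 stood apart. The values of the 7 members are therefore given as a description, without a test.

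The RNA sequenced here came from the spleen cells of 8 Balb/c females, all aged 3 months. The 4 tRA mice received all-trans retinoic acid, the active metabolite of vitamin A, by mouth at 1 mg/kg body weight every day since weaning, and the 4 control mice received the vehicle, canola oil, over the same time. None of the mice was injected with pristane, the oil that induces lupus in the wider study. The labels' protocol text names tRA for all 8 mice, so the groups follow the sample titles. The counts on genes summed to between 30919272 and 37539631 per control mouse and to between 31810417 and 35165876 per tRA mouse. All 7 members were among the 16484 genes that passed the filter on low counts, with 342 counts for the lowest value, that of Rfx2 in control replicate 4. Each level is in CPM, a gene's count relative to the library total as adjusted by TMM, and fold changes are tRA over control on the log2 scale with the standard error (SE) of the edgeR fit. Splenocytes are a mixture in which fewer cells of a type and less RNA per cell cannot be told apart.

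Over the 16484 genes that entered edgeR's quasi-likelihood test, 0 (0%) passed an FDR of 0.1, 1070 (6.49%) had an unadjusted p under 0.05, and DESeq2 called 44 of the 12964 genes it gave an adjusted p (0.339%). Among the 7 RFX genes the corresponding counts were 0, 1 and 1, the single gene being Rfx2. The DESeq2 call of Rfx2 lay barely under the cut of 0.1. All 4 tRA mice exceeded all 4 control mice for 315 genes (1.91%), Rfx2 among them, and all 4 lay below for 269 genes (1.63%), none of them an RFX gene. Since this contrast chose the family, nothing is read from these counts.

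**Figure D1:**
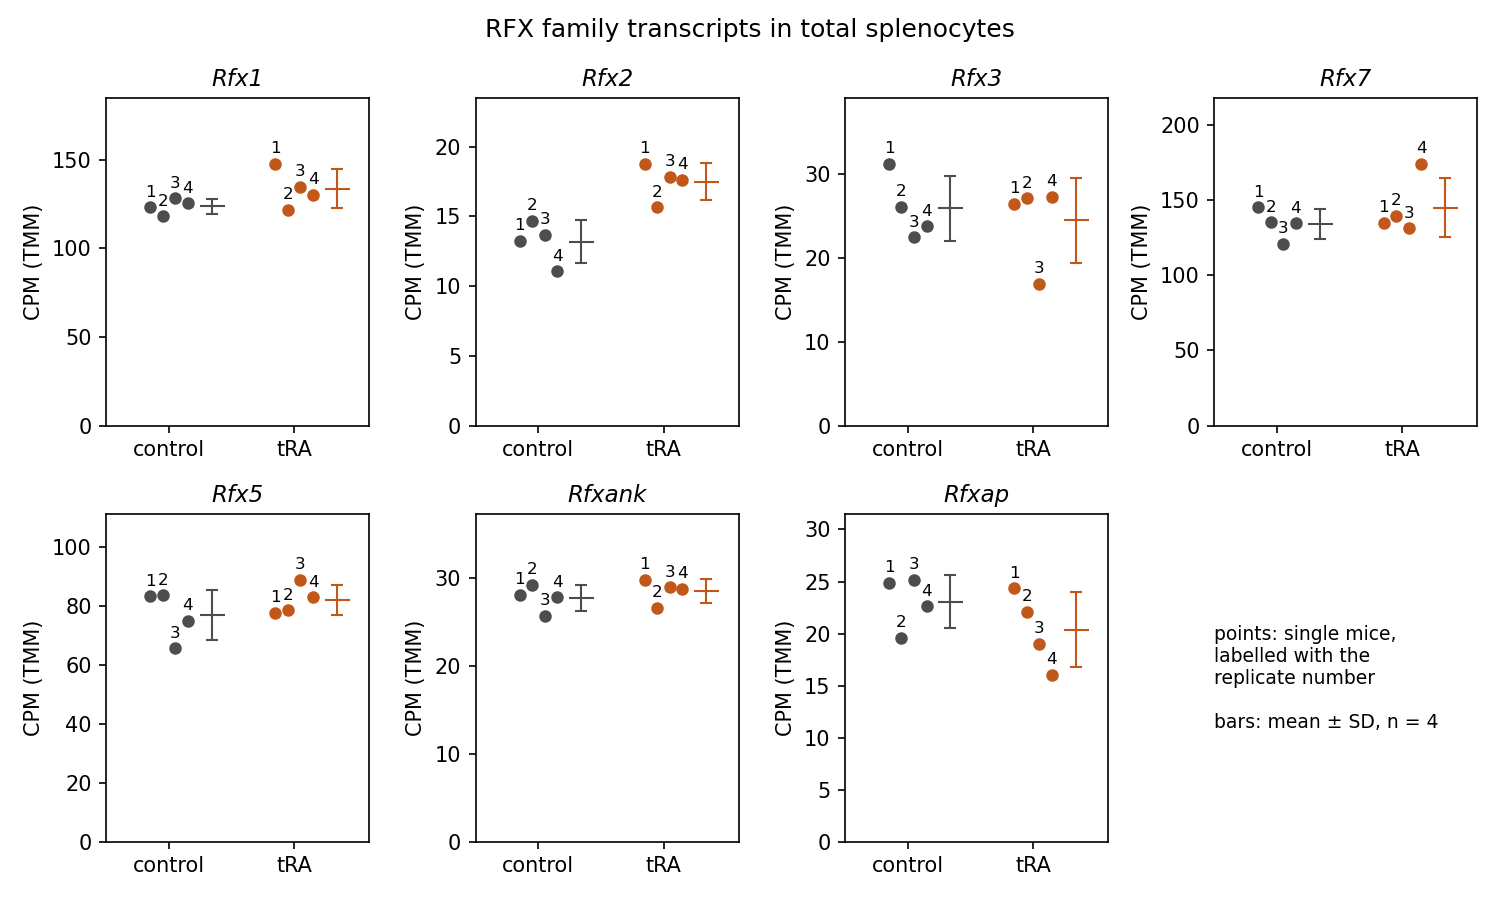
CPM of the 7 RFX genes in each of the 8 mice (points, numbered by replicate) with the mean ± SD of each group (n = 4) beside them; every axis starts at 0. The groups are apart for Rfx2, with 11.1 to 14.7 CPM in control and 15.65 to 18.8 CPM in tRA mice, and overlap for the other 6 genes.

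Rfx2 (ENSMUSG00000024206, chr17:56775897-56831013 on the minus strand of GRCm38) encodes a factor needed for sperm development and for the assembly of motile cilia. It stood at 13.3, 14.7, 13.7 and 11.1 CPM in control replicates 1 to 4. The tRA replicates 1 to 4 had 18.8, 15.65, 17.8 and 17.6 CPM. Every tRA mouse was thus above every control mouse, in 16 of 16 pairs, although tRA replicate 2 and control replicate 2 lay close together. The group means were 13.2 ± 1.54 CPM (SD, n = 4) in control and 17.5 ± 1.32 CPM (SD, n = 4) in tRA mice, a 1.33-fold difference, and the log2 fold change was 0.41 (SE 0.107). This separation belongs to the contrast on which the gene was chosen and is no independent support for it.

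Rfx3 (ENSMUSG00000040929, chr19:27761721-28011166, minus strand) encodes the closest relative of RFX2, which directs ciliary genes and the maturation of pancreatic islet cells. Its values were 31.3, 26.1, 22.5 and 23.8 CPM in control replicates 1 to 4. In tRA replicates 1 to 4 they were 26.5, 27.1, 16.9 and 27.3 CPM. A single library, tRA replicate 3, was lower than the other 7, and the remaining 3 tRA mice lay within the control range. The log2 fold change was -0.084 (SE 0.157), and its sign rested on single mice: it was 0.057 without tRA replicate 3, 0.020 without control replicate 1 and -0.15 without control replicate 3.

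Rfx1 (ENSMUSG00000031706, chr8:84066834-84096992, plus strand) encodes the broadly expressed founding member of the family, which can activate or repress its targets. Control replicates 1 to 4 gave 123, 118, 128 and 126 CPM. The tRA replicates 1 to 4 gave 148, 122, 135 and 130 CPM. For 3 of the 4 tRA mice the value was above all 4 controls, while tRA replicate 2 fell inside the control range. The means were 124 ± 4.23 CPM (SD, n = 4) and 134 ± 10.9 CPM (SD, n = 4), with a log2 fold change of 0.11 (SE 0.0699), a difference smaller than the SD of the tRA group. It was 0.059 without tRA replicate 1.

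Rfx7 (ENSMUSG00000037674, chr9:72532240-72622937, plus strand) encodes the member tied to growth restraint in lymphocytes. Control replicates 1 to 4 held 145, 135, 121 and 135 CPM of its transcript. The values in tRA replicates 1 to 4 were 135, 139, 131 and 174 CPM. Only tRA replicate 4 exceeded the control range. The log2 fold change of 0.11 (SE 0.0966) came from that mouse in large measure, as it was 0.012 without tRA replicate 4.

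The remaining 3 members encode the subunits of the MHC class II enhanceosome complex. Rfx5 (ENSMUSG00000005774, chr3:94954075-94961561, plus strand), which supplies the DNA-binding domain, had 83.4, 83.8, 65.7 and 75.0 CPM in control replicates 1 to 4. In tRA replicates 1 to 4 it had 77.7, 78.7, 88.9 and 83.0 CPM. The groups overlapped, with control replicate 3 the lowest and tRA replicate 3 the highest of the 8 mice. Its log2 fold change was 0.093 (SE 0.0868), and it was 0.017 without control replicate 3.

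Rfxank (ENSMUSG00000036120, chr8:70130794-70139154, minus strand) encodes the ankyrin-repeat subunit that bridges the complex. It varied least among the 7 in tRA mice, with 28.1, 29.3, 25.8 and 27.9 CPM in control replicates 1 to 4 and 29.8, 26.6, 29.0 and 28.8 CPM in tRA replicates 1 to 4. The groups overlapped almost fully, and the log2 fold change was 0.041 (SE 0.0724), from 0.00051 without control replicate 3 to 0.071 without tRA replicate 2. For Rfxap (ENSMUSG00000036615, chr3:54803115-54807791, minus strand), the RFX-associated protein that completes the trimer, control replicates 1 to 4 had 24.9, 19.6, 25.2 and 22.7 CPM. The tRA replicates 1 to 4 had 24.3, 22.1, 19.0 and 16.1 CPM. Here 2 tRA mice, replicates 3 and 4, were below all controls and the other 2 were not. The log2 fold change of Rfxap was -0.18 (SE 0.132), opposite in sign to those of its partners Rfx5 and Rfxank, and with 1 mouse left out it ran from -0.28 without tRA replicate 1 to -0.081 without tRA replicate 4.

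Some of these counts may include reads from neighbours or lack reads from exon bases shared with them. Whether strand was used in counting is not stated in the sources used here. If it was not, reads in exon bases shared by opposite strands may be given to either gene or left out of both. The neighbour Nr2c2ap covers 33.8% of the Rfxank exon length and had 2.14 ± 0.697 CPM (SD, n = 4) in control and 2.13 ± 0.676 CPM (SD, n = 4) in tRA mice. The count of Nr2c2ap may lack reads from the shared bases too. B230398E01Rik, which is antisense to Rfx5 over 26.8% of its exon length, had 0.191 ± 0.0674 CPM (SD, n = 4) and 0.228 ± 0.0917 CPM (SD, n = 4). Rfx1 shares 0.653% of its exon length with C330011M18Rik, and Rfx7 shares 3.9% with Gm27232, which had 0 counts in all 8 libraries, and 2.73% with Gm27241. No exon of Rfx2, Rfx3 or Rfxap is shared with another annotated gene.

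Levels of different genes were compared per kb of exon, with exon bases shared with neighbours kept in the length. Rfxank and Rfx5 share the largest parts of their exons, so their places in the order are less certain. In control mice the order was Rfx1 (19.3 ± 0.658 CPM per kb, SD, n = 4), Rfx5 (14.0 ± 1.55), Rfxap (10.3 ± 1.15), Rfx7 (8.76 ± 0.654), Rfxank (7.0 ± 0.369), Rfx3 (2.35 ± 0.351) and Rfx2 (1.80 ± 0.210). Rfx1 exceeded Rfx5, and Rfx5 exceeded the other 5 genes, in 8 of 8 mice. Rfxap and Rfx7 did not differ beyond their spread, with Rfx7 the higher of the pair in 3 of 8 mice. Rfx2 was below Rfx3 in all 4 control mice but above it in 2 of the 4 tRA mice, replicates 1 and 3, where the means were 2.39 ± 0.18 CPM per kb (SD, n = 4) for Rfx2 and 2.22 ± 0.457 (SD, n = 4) for Rfx3. Within the MHC class II complex, the transcript of the DNA-binding subunit was the most abundant in every mouse, and Rfxap was above Rfxank in all mice but tRA replicate 4. Among the 13146 protein-coding genes tested, Rfx1 stood at percentile 81.7 by CPM per kb and Rfx2 at percentile 31.1.

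The family's other genes were nearly silent in the spleen. Rfx4, a regulator of brain and testis genes, had 12 counts over the 8 libraries, Rfx8 had 2 and Rfx6, which acts in endocrine cells of gut and pancreas, had 0. A count of 0 allows a level of up to 0.0812 to 0.0969 CPM depending on the library (3 counts, covering counting error only), and these 3 genes did not pass the filter on low counts.

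To see which genes varied with RFX transcripts from mouse to mouse, log2 CPM was centred on each group's mean and correlated over the 8 libraries. Among the members, Rfx5 and Rfxank had the highest coefficient, 0.677, and Rfx7 and Rfxap the lowest, -0.593. Rfx5 and Rfxap, partners in 1 complex, had -0.505, so the transcripts of the 3 subunits did not rise and fall together in these 8 libraries. With so few libraries, each of these coefficients is uncertain. Of 13145 protein-coding genes, those most like Rfx2 were Rhoc (0.973), Rbm20 (0.971), Nat8f4 (0.960), Ly6g5b (0.959) and Pcdh17 (0.953). None of these 5 reached 4 CPM in either group's mean. The log2 fold changes of Rhoc (-0.33, SE 0.202) and Rbm20 (-0.024, SE 0.323) had the opposite sign to Rfx2. Nat8f4 (0.027, SE 0.234), Ly6g5b (0.039, SE 0.197) and Pcdh17 (0.54, SE 0.475) shared its sign. Those most like Rfx5 were Hnrnpul1 (0.986), Ddb1 (0.985), Amigo3 (0.984), Ttbk1 (0.983) and Tesk1 (0.973). With 8 libraries that share depth and cell composition, and so many genes searched, coefficients of this size describe these mice only.

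MHC class II genes are the main immune targets of RFX5, RFXANK and RFXAP. They encode the molecules with which B cells, dendritic cells and macrophages present peptides to CD4 T cells, together with the invariant chain Cd74 and the H2-M and H2-O chaperones of peptide loading. All 10 listed genes were tested, 0 were called at an FDR under 0.1, 8 had a lower and 2 a higher level in tRA mice, and their median log2 fold change was -0.16, against 0.0014 over all genes tested. The summed level of the 10 genes was 16528, 15183, 15161 and 14763 CPM in control replicates 1 to 4. In tRA replicates 1 to 4 it was 15087, 14357.5, 12657 and 12698 CPM, so that tRA replicate 1 lay inside the control range and replicates 3 and 4 were the lowest.

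H2-Aa, the alpha chain of the I-A molecule, had 2897, 2409.7, 2534 and 2379 CPM in control replicates 1 to 4. Its values in tRA replicates 1 to 4 were 2522, 2254, 1877 and 1969.9 CPM. The groups overlapped through tRA replicate 1, and the log2 fold change was -0.25 (SE 0.111). H2-Ab1, the beta chain of the same molecule, gave -0.17 (SE 0.0920). Cd74, the chaperone that escorts new class II molecules, was the most abundant gene of the list and had 6937 ± 253 CPM (SD, n = 4) in control and 6208 ± 442 CPM (SD, n = 4) in tRA mice, with all 4 tRA mice below all 4 controls. Its log2 fold change was -0.16 (SE 0.0866).

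The H2-O chains, which dampen H2-M in B cells, went opposite ways. H2-Oa had 132 ± 7.11 CPM (SD, n = 4) in control and 118 ± 6.69 CPM (SD, n = 4) in tRA mice, a log2 fold change of -0.16 (SE 0.0668). H2-Ob, singled out after its values were seen, had 437, 441, 395 and 385 CPM in control replicates 1 to 4 and 448, 471, 463 and 449 CPM in tRA replicates 1 to 4. It was the 1 gene of the list with every tRA mouse above every control mouse, as were 1.91% of all genes tested. Its log2 fold change was 0.14 (SE 0.0699). H2-DMb1 and H2-DMb2 are near-identical copies whose reads may have been split between them, and the reference genome is of another strain than Balb/c, so levels of the polymorphic H2 genes are uncertain in both groups alike.

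Class II regulators act beside the RFX complex. Ciita, the master coactivator, had 275 ± 50.2 CPM (SD, n = 4) in control and 292 ± 41.6 CPM (SD, n = 4) in tRA mice, a log2 fold change of 0.086 (SE 0.138). Creb1, which encodes a protein of the X2 box, gave 0.040 (SE 0.103), and Nfya, a subunit of the Y-box factor NF-Y, gave 0.16 (SE 0.0836). Of the 5 listed regulators, 0 were called, 4 were higher and 1 was lower in tRA mice, with a median log2 fold change of 0.040, which ran from 0.018 without control replicate 2 to 0.067 without control replicate 1. The summed level of the regulators was 555 to 667 CPM in control and 599 to 691 CPM in tRA mice. MHC class I promoters carry a related module, and of 7 class I pathway genes 0 were called, 1 was higher and 6 were lower, with a median log2 fold change of -0.14, which was -0.083 without control replicate 3. Among them were H2-D1 (-0.15, SE 0.0896) and H2-K1 (-0.17, SE 0.108), which encode the classical heavy chains and may share reads, B2m (-0.050, SE 0.0765), their light chain, and the immunoproteasome gene Psmb9 (-0.18, SE 0.0757).

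Ciliary transport genes, the classical targets of RFX2 and RFX3, showed no common direction beside the higher Rfx2. Of 28 genes for intraflagellar transport and the BBSome, all tested, 0 were called, 16 were higher and 12 were lower in tRA mice, with log2 fold changes from -0.36 to 0.22 and a median of 0.0074. The summed level was 397 to 420 CPM in control and 401 to 429 CPM in tRA mice. The most abundant were Ift140 (56.8 ± 6.24 CPM in control and 56.9 ± 5.62 CPM in tRA mice, SD, n = 4), Ift80 (log2 fold change 0.052, SE 0.0680) and Ift172 (log2 fold change 0.070, SE 0.0872). Without tRA replicate 2 the median of the list was -0.0043. Multiciliated cells, in which RFX factors drive whole ciliary programmes, were at most rare by their markers: Tekt1 had 0 counts in all 8 libraries, Dnah5 at most 2, and Foxj1, the master gene of motile cilia, had 1.70 ± 0.484 CPM (SD, n = 4) in control and 1.2 ± 0.293 CPM (SD, n = 4) in tRA mice. Of these 8 markers, 4 were tested, 1 higher and 3 lower in tRA mice. Their sum of 112 to 130 CPM in control and 96.3 to 139 CPM in tRA mice was nearly all Cfap43, at 114 ± 7.44 CPM (SD, n = 4) in control mice, and Ccdc39 had a log2 fold change of 0.45 (SE 0.238).

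Genes linked to RFX7 include brakes on translation, on phosphoinositide 3-kinase and on proliferation. All 16 listed genes were tested, 0 were called, 4 were higher and 12 were lower in tRA mice, and the median log2 fold change was -0.093. That median was 0.0019 without tRA replicate 3. Junb, an AP-1 subunit, had 2751, 2279, 2169 and 2096 CPM in control replicates 1 to 4 and 2743, 1912, 804 and 1043 CPM in tRA replicates 1 to 4. Klf2, a factor of lymphocyte quiescence, had the same pattern, with 417 and 524 CPM in tRA replicates 3 and 4 against 874 to 1577 CPM in control mice. Both are also rapidly induced genes, and their log2 fold changes were -0.52 (SE 0.314) for Junb and -0.52 (SE 0.333) for Klf2. Pnrc1, a nuclear receptor coactivator, gave -0.14 (SE 0.228), and Pdcd4 and Pik3ip1, singled out after their values were seen as well-known genes of the list, gave -0.015 (SE 0.0972) and -0.014 (SE 0.0952).

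**Figure D2:**
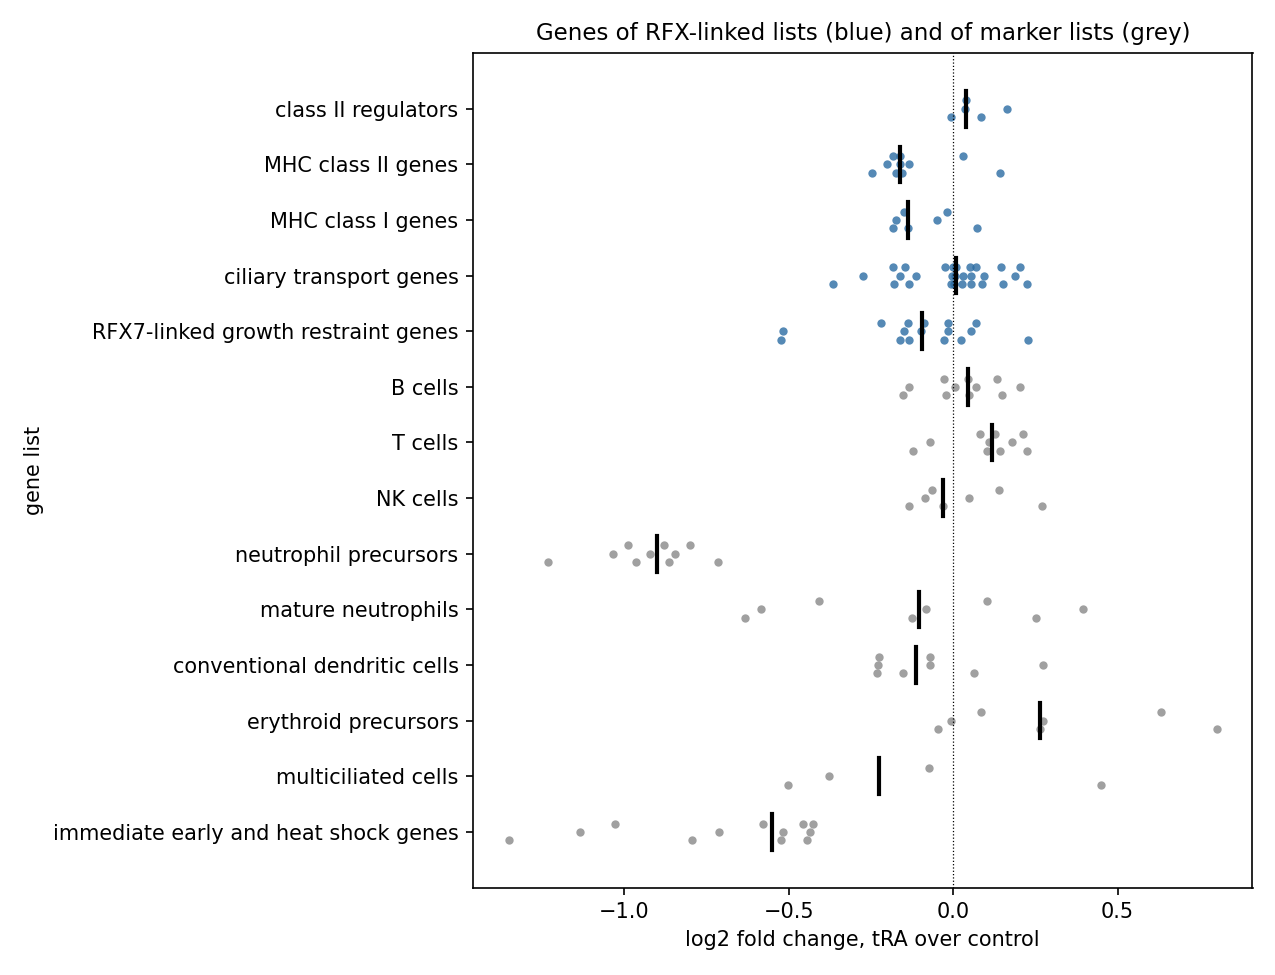
Log2 fold change, tRA over control, of each tested gene (points) in 5 lists linked to the RFX family (blue) and 9 lists of cell type or handling markers (grey), with the median of each list as a black bar. The MHC class II genes lie mostly below 0 (median -0.16), the ciliary transport genes around 0 (median 0.0074), and the neutrophil precursor and immediate early lists are wholly below 0.

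Markers of spleen cell types and of cell handling are given beside these values, since the RFX genes and their targets differ in level between cell types. B cells, the main class II-bearing cells of the spleen, had 11 markers tested, 7 higher and 4 lower in tRA mice, with a median log2 fold change of 0.045. Their sum was 8836, 8366, 7979 and 7502 CPM in control replicates 1 to 4. In tRA replicates 1 to 4 it was 8160.02, 8378, 8324 and 8250.5 CPM, all within the control range. Cd79a, a chain of the B cell receptor and the most abundant marker, had a log2 fold change of -0.13 (SE 0.0856), and that of Cd22 was 0.071 (SE 0.0917).

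Conventional dendritic cells had 8 markers tested, 2 higher and 6 lower, with a median log2 fold change of -0.11 and a sum of 132 to 197 CPM in control and 127 to 166 CPM in tRA mice, led by Itgax (-0.071, SE 0.138). Cd209a (0.27, SE 0.123), Flt3 (-0.23, SE 0.122) and Clec9a (-0.23, SE 0.178) differed in sign within this list. T cells had 10 markers tested, 8 higher and 2 lower, with a median of 0.12 and a sum of 1622 to 1969 CPM in control and 1869.6 to 1927 CPM in tRA mice. Lck led the T cell list (-0.071, SE 0.103), followed by Cd4 (0.18, SE 0.0814) and Cd3e (0.21, SE 0.0978), and Cd28 gave 0.22 (SE 0.10). NK cells had 7 of 8 markers tested, 3 higher and 4 lower, with a median of -0.032 and a sum of 283 to 439 CPM in control and 311 to 356 CPM in tRA mice. Gzma (-0.13, SE 0.163), Ncr1 (0.27, SE 0.162) and Prf1 (-0.065, SE 0.0823) were the most abundant of them. For these 3 cell types the sums of the groups overlapped.

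Neutrophil precursor genes were all lower in tRA mice, 10 of 10, with log2 fold changes from -1.23 for Camp to -0.71 for Lcn2 and a median of -0.90. Their sum was 546, 685, 721 and 619 CPM in control replicates 1 to 4. In tRA replicates 1 to 4 it was 243, 304, 332 and 480 CPM, led by the granule protein gene Ngp (-0.92, SE 0.182). Of these 10 genes, 7 had all tRA mice below all controls, as did 1.63% of all genes tested. Mature neutrophil markers had no common direction, with 3 of 8 higher, 5 lower, a median of -0.10 and sums of 564 to 939 CPM in control and 473 to 847 CPM in tRA mice, led over all 8 mice by Csf3r (0.25, SE 0.228), although S100a9 was above it in the control mean, while S100a8 (-0.63, SE 0.202) and S100a9 (-0.58, SE 0.157) were lower. The study's methods for isolating splenocytes, given with those for flow cytometry, include a step that lyses red blood cells. Erythroid precursor markers spread most between mice, from 77.6 to 266 CPM in control and from 98.7 to 530 CPM in tRA mice, with tRA replicate 3 the highest. Of 7 tested, 5 were higher and 2 lower, with a median of 0.26, and the most abundant over all 8 mice were Slc4a1 (0.27, SE 0.528), Hbb-bt (0.80, SE 0.670) and Alas2 (0.63, SE 0.614); Ahsp was not analysed here.

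Immediate early and heat shock genes, which respond to the handling of cells, were lower in tRA mice for 12 of 12 genes, with a median log2 fold change of -0.55. The sum was 18308, 17074, 18380.4 and 15279 CPM in control replicates 1 to 4. In tRA replicates 1 to 4 it was 16184, 13435, 6018 and 8727 CPM, and the same replicates 3 and 4 were the lowest for MHC class II genes, for Klf2 and for Rfxap. Junb belongs to both this list and the RFX7-linked one, so its values enter both. Fos (-0.52, SE 0.301) had the highest mean CPM over all 8 mice, although Fosb was above it in the control mean, and Fosb (-0.71, SE 0.227), Jun (-0.58, SE 0.154), Egr1 (-0.80, SE 0.216) and Dnajb1 (-1.03, SE 0.282) followed the same direction, as did the near-identical pair Hspa1a (-1.35, SE 0.452) and Hspa1b (-1.13, SE 0.429). The part of cell handling, neutrophil precursors or any other cell type in the levels of the RFX genes and their targets was not tested.

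Some RFX genes carry RFX-like motifs of their own. Promoter windows of 300 bases, 250 before the annotated start of transcription and 50 from it on, were available from RefSeq (GRCm38.p6) for 6 of the 7 members, with Rfxap lacking, and for 27025 genes in all. The motifs were chosen after the sequences were seen, and both strands were searched. The full inverted repeat GNAACNGTTNC occurred in Rfx1, Rfx2 and Rfx3, the 3 ciliary-type members, and not in Rfx5, Rfx7 or Rfxank, while 110 of all genes (0.407%) hold it. In each of these 3 promoters a GTTGCC overlaps its right arm, and that shorter motif alone is held by 14.1% of all genes. The repeat is shown in capitals with 9 bases on each side, read along the gene, at chr8:84066822-84066850 for Rfx1 (plus strand), chr17:56831111-56831139 for Rfx2 and chr19:28011122-28011150 for Rfx3 (both minus strand), so that its arms can be compared:
Rfx1: gggtgggtaGCAACAGTTGCcccggtgag
Rfx2: tgcagcttgGTAACCGTTGCcgggcgcaa
Rfx3: tgagttataGCAACCGTTGCcttgtgaat
The repeat spans the start in Rfx1 (bases -5 to 6), lies upstream in Rfx2 (bases -122 to -112) and lies downstream of the start in Rfx3 (bases 26 to 36).

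As Rfx2 is the member whose groups were apart, the 250 bases before its start (chr17:56831009-56831258, minus strand, GRCm38.p6) are given with the same repeat in capitals:
Rfx2: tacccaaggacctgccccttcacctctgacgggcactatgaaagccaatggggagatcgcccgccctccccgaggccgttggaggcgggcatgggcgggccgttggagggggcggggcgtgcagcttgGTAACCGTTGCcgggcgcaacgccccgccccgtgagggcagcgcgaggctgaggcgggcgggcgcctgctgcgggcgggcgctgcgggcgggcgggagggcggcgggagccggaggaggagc
Retinoic acid receptors bind pairs of half-sites such as AGGTCA or AGTTCA. Neither half-site was found in any of the 6 member windows, against 18.1% of all genes for AGGTCA and 15.7% for AGTTCA, which says only that these letters are not in these windows. The study's supplement lists the closest receptor binding regions for Rfx2, with which these windows were not compared. Of the genes with the full inverted repeat, 52 were tested, 30 of them higher and 22 lower in tRA mice, with a median log2 fold change of 0.021. These genes include Rfx1, Rfx2 and Rfx3, from whose promoters the motif was chosen.

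MHC class II promoters show the other arrangement, in which the RFX5 complex binds 1 X box arm and NF-Y binds the Y box downstream of it. The letters GNAAC followed after 25 to 28 bases by ATTGG, a spacing also chosen after the sequences were seen, occurred in 6 of the 8 class II genes with a promoter window and in 225 of all genes (0.833%). The 6 stretches are printed because the complex of RFX5, RFXANK and RFXAP acts through boxes of this kind. The X box and Y box letters are in capitals, with 5 bases on each side. The stretches are matches of letters, and binding was not measured here. They lie at chr17:34287862-34287909 (H2-Aa, minus strand), chr17:34305771-34305817 (H2-Eb1), chr17:34325538-34325584 (H2-Eb2), chr17:34153092-34153139 (H2-DMb1), chr17:34092298-34092345 (H2-Oa) and chr17:34238813-34238857 (H2-Ob), the last 5 on the plus strand:
H2-Aa: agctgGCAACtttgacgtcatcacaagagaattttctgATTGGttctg
H2-Eb1: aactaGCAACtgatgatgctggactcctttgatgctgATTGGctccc
H2-Eb2: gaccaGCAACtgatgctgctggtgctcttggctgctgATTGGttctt
H2-DMb1: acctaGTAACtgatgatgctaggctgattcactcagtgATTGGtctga
H2-Oa: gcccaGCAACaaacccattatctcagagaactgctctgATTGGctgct
H2-Ob: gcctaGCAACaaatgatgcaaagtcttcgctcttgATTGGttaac
The gap between the boxes was 28 bases in H2-Aa, H2-DMb1 and H2-Oa, 27 in H2-Eb1 and H2-Eb2 and 25 in H2-Ob. H2-Aa alone among the 8 holds TGACGTCA, the core that CREB binds, which lies between its boxes and is found in 2.03% of all genes. Windows of H2-DMa and H2-DMb2 hold ATTGG, as 41.1% of all genes do, without a GNAAC at that distance. H2-Ab1 and Cd74 have no promoter window. Of the 104 tested genes with the paired letters, 47 were higher and 57 lower in tRA mice, with a median log2 fold change of -0.026. These include the 6 class II genes from which the spacing was chosen.

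**Figure D3:**
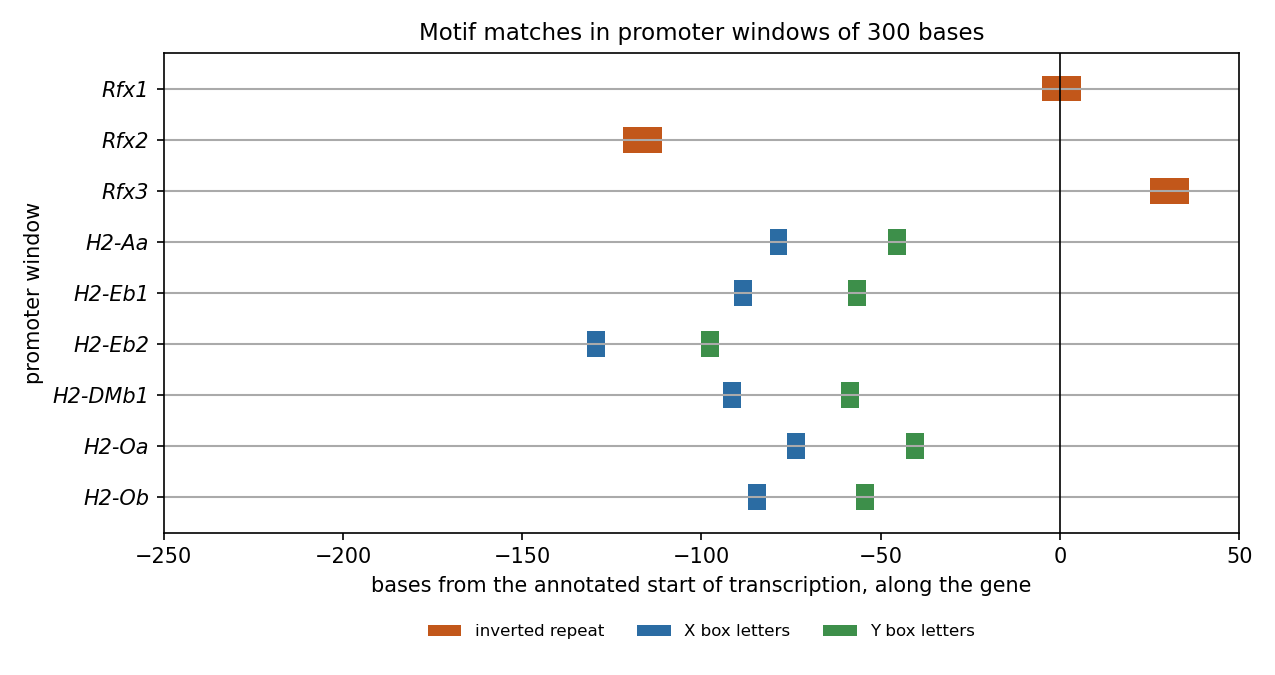
Positions of the motif matches in promoter windows of 300 bases, in bases from the annotated start of transcription (vertical line) along each gene, with the inverted repeat GNAACNGTTNC in orange, GNAAC in blue and ATTGG of the pair in green. The repeat sits at a different place in each of Rfx1, Rfx2 and Rfx3, while the paired boxes of the 6 MHC class II genes all lie upstream of the start, 25 to 28 bases apart.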

How the data were processed

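RNA was extracted from total splenocytes of 8 mice, and libraries were made with the TruSeq v2 kit from RNA of high integrity and sequenced as paired ends on 1 lane. The authors deposited raw counts per Ensembl gene. The study's methods name Bowtie2, Tophat2 and HTSeq for them, whereas the submitters' processing notes name STAR 2.5.2b, featureCounts 1.5.1, DESeq2 1.26.0 and GRCm38, and which of these made the table was not settled. The authors also deposited a DESeq2 comparison, with fold changes and p-values per gene, which was not used here.

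Symbols, positions, exon lengths and biotypes came from GENCODE M21, which holds 51633 of the 51826 identifiers. In R 4.3.3, genes were kept by filterByExpr (minimum of 10 counts), scaled by TMM and compared by the quasi-likelihood test of edgeR 4.0.16 with Benjamini-Hochberg adjustment. The fit was tested on simulated data. DESeq2 1.42.0, limma 3.58.1 (voom), RLE factors, library size alone, other filters, robust dispersion, the replicate number as a block and each mouse left out in turn were the alternatives. Pairs of mice within a group differed by a chi-square per degree of freedom from 14.1 to 72.6, which is more than sampling noise. Correlations used log2 CPM with a prior count of 2. Figures were drawn in Python 3.11.15 with matplotlib 3.10.9.

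The members and lists were chosen with earlier results of these data known. Named genes were every member, from each list the genes with an unadjusted p under 0.05 and the 3 most abundant by CPM, and the 5 genes most correlated with Rfx2 and with Rfx5. The values of 1 gene that this rule names are not reported here. Lists covered class II regulators, MHC class II and class I genes, ciliary transport genes, RFX7-linked genes, the other RFX genes and markers of 8 cell types and of cell handling. They are described by counts and medians, with no set test.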

Additional observations from a re-analysis of the deposited data

Results flagged for a closer look

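Rfx3 in tRA mice was 1 of 42 groups of 4 values examined, over the members and the list sums, and the single one in which a single mouse stood far from the others. Its level was 16.9 CPM in tRA replicate 3 and 26.5 to 27.3 CPM in the other 3 tRA mice, so that the gap below the nearest mouse made up 0.920 of the whole range. The cut for standing apart was a gap of 0.829 of the range. Chance passes that cut in about 1 in 20 groups, or 2.1 of 42, though these groups share the same 8 mice.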

How the results depend on the processing

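As reported, edgeR called 0 genes at an FDR under 0.1, with 1070 at an unadjusted p under 0.05. DESeq2 called 44, edgeR with no filter on low counts 6 and limma-voom 1, and the cause was not tested. With 1 mouse left out the count was 0 to 3, with 3 without tRA replicate 4, where the number at an unadjusted p under 0.05 was 657; that number was 2105 without tRA replicate 1. The log2 fold change of Rfx2 was positive in 17 of 17 alternatives, from 0.33 without control replicate 4 to 0.46 without control replicate 2. Rfx1, Rfx5, Rfx7, Rfxank and Rfxap also kept their sign in 17 of 17, but the lowest values, 0.017 for Rfx5 without control replicate 3, 0.012 for Rfx7 without tRA replicate 4 and 0.00051 for Rfxank without control replicate 3, were close to 0. Rfx3 kept its sign in 15 of 17, the exceptions being 0.057 without tRA replicate 3 and 0.020 without control replicate 1. The median of the MHC class II genes was -0.19 to -0.13 with 1 mouse left out and negative in 17 of 17, the RFX7-linked median was negative in 16 of 17 (0.0019 without tRA replicate 3) and the ciliary median positive in 16 of 17 (-0.0043 without tRA replicate 2). Other scalings moved the median of all genes to at most 0.031.

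With the replicate number as a block, 0 genes were called and Rfx2 had a log2 fold change of 0.41. Deviations of same-numbered mice correlated by 0.157, -0.0229, -0.0140 and 0.259, and 2 of 4 control and 1 of 4 tRA mice correlated best with their own number. With so few mice, these values cannot settle whether the numbers pair the samples.

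With 4 mice per group and 342 to 658 counts for Rfx2, small differences could not be resolved. A fold change larger than the SE given beside it is not thereby resolved. Rfx4, Rfx6 and Rfx8 were too low to be compared. Whole splenocytes do not show which cells carry a transcript, and protein was not measured in these libraries. The promoter windows cover 300 bases and leave out distant elements.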
